A study of Mus musculus with 23 samples.

Results

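The MHC class I antigen presentation genes H2-K1, H2-D1, H2-Q7, B2m, Tap1, Tap2, Tapbp and Nlrc5 were followed through the 7 groups of a study of Notch signalling in fetal mouse thymic epithelial cells. The 8 genes were chosen by their role in class I presentation, with earlier results of these data known. H2-Q7 was included for its rise after Rbpj loss at E12.5, so that this contrast is given below as a description only. The members are 8 of the 50123 genes in the count table, and all 8 were among the 19140 genes with enough counts to be tested. Each of the 23 libraries was made from 100 cells sorted on the epithelial surface protein EPCAM and on PLET1, a surface marker of early thymic epithelial progenitors.

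At E12.5 (E, embryonic day), 3 libraries came from PLET1+ control cells and 3 from PLET1+ Rbpj cKO cells. At E14.5, 3 libraries each came from PLET1+ and PLET1- cells of the control and Rbpj cKO genotypes, and 5 from PLET1+ NICD cells. Control embryos were labelled wild type and were littermates from the Rbpj cross. The Rbpj cKO genotype was Foxn1Cre RbpjFL/FL, in which Cre driven by Foxn1, the transcription factor gene of thymic epithelium, removes the DNA-binding partner of Notch. The NICD genotype was Foxn1Cre Rosa26FL-STOP-FL-NICD-IRES-EGFP, in which the same Cre switches on the active Notch intracellular domain together with EGFP. All samples carried the strain label C57BL/6. Cre driven by Foxn1 acts only in cells that have begun to express Foxn1. The labels give the E12.5 and E14.5 libraries separate batches without saying what a batch was, and the 5 NICD embryos came from 1 litter sorted in another laboratory and formed a batch of their own. Age therefore cannot be told apart from batch, nor can the NICD genotype from its batch and laboratory.

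Class I molecules display peptides from inside the cell to CD8+ T cells. A heavy chain pairs with the invariant light chain B2m. Mouse heavy chain genes include the classical H2-K1 and H2-D1, and others such as the Qa gene H2-Q7. Tap1 and Tap2 form the transporter that carries peptides into the endoplasmic reticulum, and Tapbp (tapasin) bridges that transporter to empty class I molecules. Nlrc5 is a transactivator that acts at class I promoters together with proteins bound to their X and Y boxes. In the thymus, class I molecules on cortical epithelial cells select CD8+ T cells.

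Between 20053241 and 92699969 read pairs per library were counted in genes, and the NICD libraries held 63587152 to 92699969. The 7 epithelial markers checked, Epcam, Krt8, Krt18, Cdh1, Foxn1, Pax9 and Pax1, had counts in every library. Plet1 averaged 21.7 CPM (read pairs scaled to a common library size) ± 3.34 in E14.5 PLET1+ control cells and 3.36 ± 3.17 in the PLET1- cells (SD, n = 3 each). Rbpj averaged 24.4 CPM ± 12.02 in control and 9.26 ± 7.05 in Rbpj cKO cells at E12.5, where the libraries overlapped. At E14.5 it averaged 19.7 ± 1.10 against 5.81 ± 5.27 in PLET1+ cells, where they did not. Hes1, a direct Notch target, was higher in NICD than in control cells at E14.5 by 2.04 ± 0.37 (log2 fold change ± SE, edgeR adjusted p = 0.0145).

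Of the members, 6 lie within 1.53 Mb of chromosome 17, in the mouse major histocompatibility complex. In GRCm38 coordinates these are Tapbp (chr17:33915899-33929288, + strand), H2-K1 (chr17:33996017-34000333, - strand), Tap1 (chr17:34187553-34197225, + strand), Tap2 (chr17:34203527-34216321, + strand), H2-D1 (chr17:35262730-35267499, + strand) and H2-Q7 (chr17:35439155-35443773, + strand). B2m lies at chr2:122147686-122153083 and Nlrc5 at chr8:94434356-94527272, both on the + strand. Reads were counted without regard to strand, and 22% of the exon length of Tapbp and 18.5% of that of Tap2 overlaps exons of neighbouring genes, so some of their counts could belong to these neighbours. Class I heavy chain genes are close copies of each other. Of all 75-base windows of the H2-Q7 transcript, 21.7% also occur in another gene, and 13.6% occur in H2-Q6. The level of H2-Q7 is uncertain to that extent, whereas the share was 7.1% for H2-D1, 1.6% for H2-K1 and 0% for B2m.

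RefSeq promoter windows (GRCm38.p6) were matched by symbol for 6 members, namely H2-K1, H2-D1, H2-Q7, B2m, Tap1 and Tapbp. Tap2 and Nlrc5 had no entry. The 250 bases before the annotated first transcribed base are printed for a classical heavy chain, for H2-Q7 and for the light chain, because they share a motif layout although B2m lies on another chromosome. Capitals mark matches, on either strand, to the interferon response cores GAANNGAAA and GAAANNGAA, to the kappaB core GGGATTCC, to the X2 site TGACG and to the Y box CCAAT.
H2-K1, chr17:34000348-34000597, - strand: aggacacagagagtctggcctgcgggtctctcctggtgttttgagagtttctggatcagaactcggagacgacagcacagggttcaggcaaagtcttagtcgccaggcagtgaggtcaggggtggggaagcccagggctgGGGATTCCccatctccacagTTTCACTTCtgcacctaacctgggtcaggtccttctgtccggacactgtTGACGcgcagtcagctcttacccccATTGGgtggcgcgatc
H2-Q7, chr17:35438905-35439154, + strand: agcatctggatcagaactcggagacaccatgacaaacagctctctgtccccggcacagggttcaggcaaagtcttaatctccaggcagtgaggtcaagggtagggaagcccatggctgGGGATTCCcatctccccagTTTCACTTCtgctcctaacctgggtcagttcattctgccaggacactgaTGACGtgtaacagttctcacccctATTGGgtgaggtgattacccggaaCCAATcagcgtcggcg
B2m, chr2:122147437-122147686, + strand: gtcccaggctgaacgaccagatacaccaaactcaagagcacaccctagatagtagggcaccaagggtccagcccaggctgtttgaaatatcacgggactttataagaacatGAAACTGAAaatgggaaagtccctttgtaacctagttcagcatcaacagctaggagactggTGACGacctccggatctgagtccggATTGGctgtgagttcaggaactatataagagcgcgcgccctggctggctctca

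A TGACG followed after 18 to 22 bases by ATTGG, the reverse complement of CCAAT, was found in 4 of the 6 windows, those of H2-K1, H2-D1, H2-Q7 and B2m, and in 0.247% of 32851 promoter windows of the same length. In H2-K1 this pair spanned positions -41 to -12, in H2-D1 -101 to -72, in H2-Q7 -64 to -36 and in B2m -78 to -49. Heavy chain genes are close copies of each other, so their matches are not separate observations. X and Y boxes were already known at class I promoters, so a high share among the members was to be foreseen. The 3 heavy chain genes also held GGGATTCC, present in 0.9% of all windows, upstream of GAANNGAAA, present in 6.3%. B2m held the other spacing GAAANNGAA, present in 7.1%. Neither Tap1 nor Tapbp held the pair. TGACG alone occurred in 17.8% of all windows and in 5 of the 6, and CCAAT in 33.8% and in all 6. Any match that was part of the pair was also counted for its own motif. Tap1 shares its upstream window with Psmb9, an immunoproteasome gene that starts 226 bp away on the opposite strand. The windows of H2-D1, Tap1 and Tapbp overlap annotated exons and are described without their letters. A match is a run of letters and does not show that a factor was bound.

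**Figure D1:**
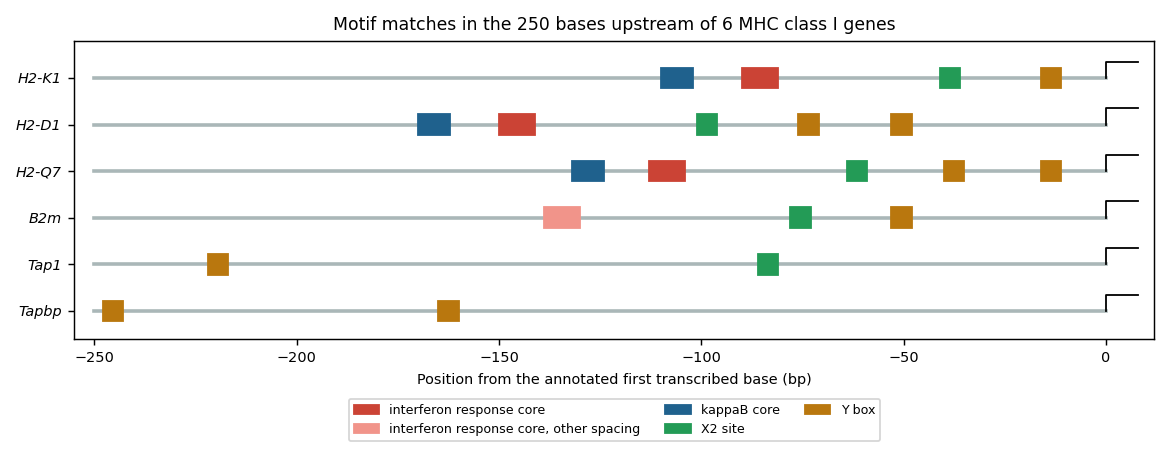
Positions of motif matches in the 250 bases upstream of 6 class I presentation genes, in bp from the annotated first transcribed base (bent line); each coloured box is a match on either strand. H2-K1, H2-D1 and H2-Q7 share the order kappaB core, interferon response core, X2 site and Y box. B2m has the last 2 of these after an interferon response core of the other spacing, and Tap1 and Tapbp have matches without this order.

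The question of how they changed with age was asked in PLET1+ control cells. In CPM on TMM-normalised library sizes, H2-K1 was 0.0832, 10.99 and 8.43 in the E12.5 control libraries and 67.1, 230.5 and 118.7 in the E14.5 control libraries. No library of the 2 ages overlapped. The group means were 6.5 ± 5.70 and 138.8 ± 83.5 (SD, n = 3 each), a 21.4-fold ratio. The fitted log2 fold change was 4.42 ± 0.93 (SE, adjusted p = 0.0247).

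H2-D1, the other classical heavy chain gene, had 0, 1 and 300 read pairs in the E12.5 control libraries and 2708, 13215 and 4126 in the E14.5 control libraries. A single E12.5 library, replicate 3, held nearly all the E12.5 signal at 5.57 CPM, and all 3 E14.5 libraries lay above it, at 98.5, 240.0 and 97.95 CPM. The ratio of group means was 78.2-fold, or 6.29 on the log2 scale. The fit, which adjusts for the batches within each age, gave 8.97 ± 1.02 (SE, adjusted p = 0.000117), and without the batch terms 6.27 (adjusted p = 0.0409, range over the other alternatives 7.81e-30 to 0.0856).

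B2m, the light chain shared by all class I molecules, was already present at E12.5. Its 3 E12.5 control libraries stood at 116.9, 121.8 and 243.1 CPM and the E14.5 libraries at 675.1, 816.4 and 514.9 CPM. The ages did not overlap, and the means of 161 ± 71.5 and 669 ± 150.8 CPM (SD, n = 3 each) gave a fitted log2 fold change of 2.12 ± 0.33 (SE, adjusted p = 0.00214).

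Of the peptide transporter subunits, Tap1 was 3.74, 0.883 and 0 CPM at E12.5 and 8.04, 32.6 and 22.2 CPM at E14.5 in control cells. The highest E12.5 library lay below the lowest E14.5 library. The means of 1.54 ± 1.96 and 20.95 ± 12.3 CPM (SD, n = 3 each) differed 13.6-fold, with a fitted log2 fold change of 5.04 ± 1.05 (SE, adjusted p = 0.0241). Without the batch terms this fell to 3.79 and missed the threshold (adjusted p = 0.171, range over the other alternatives 4.47e-08 to 0.201).

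Tap2 had no read pair in any of the 6 E12.5 libraries of either genotype. In E14.5 control PLET1+ cells it had 6, 459 and 113 read pairs, or 0.218, 8.34 and 2.68 CPM. Set against a floor of 3 counts over the 3 E12.5 libraries, the E14.5 mean was at least 173.6-fold higher, but the spread among the E14.5 libraries was wide and the fit missed the threshold (adjusted p = 0.133).

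Tapbp, like B2m, was detected in every E12.5 library. It stood at 45.8, 83.4 and 5.34 CPM in E12.5 control cells and at 259.5, 130.7 and 131.5 CPM in E14.5 control cells. The ages did not overlap, yet the fitted log2 fold change of 2.24 ± 0.65 (SE) missed the threshold (adjusted p = 0.139). Without E12.5 replicate 3, the lowest library, the change was 1.33 (adjusted p = 0.341), and without replicate 2 it was 2.98 (adjusted p = 0.0911).

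Nlrc5, the class I transactivator, was close to the limit of detection. It had 1, 0 and 0 read pairs at E12.5 and 0, 175 and 29 at E14.5 in control cells, so the ages overlapped. The E14.5 mean of 1.29 CPM ± 1.67 (SD, n = 3) against 0.0139 ± 0.0240 gave no call (adjusted p = 0.318).

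H2-Q7 had no read pair in the 3 E12.5 control libraries and 74, 746 and 42 in the E14.5 control libraries, or 2.69, 13.6 and 0.997 CPM. Its mean was at least 266.4-fold above the floor of 3 counts over the E12.5 group. These values share the E12.5 control libraries with the contrast for which H2-Q7 was chosen, and no test is given.

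**Figure D2:**
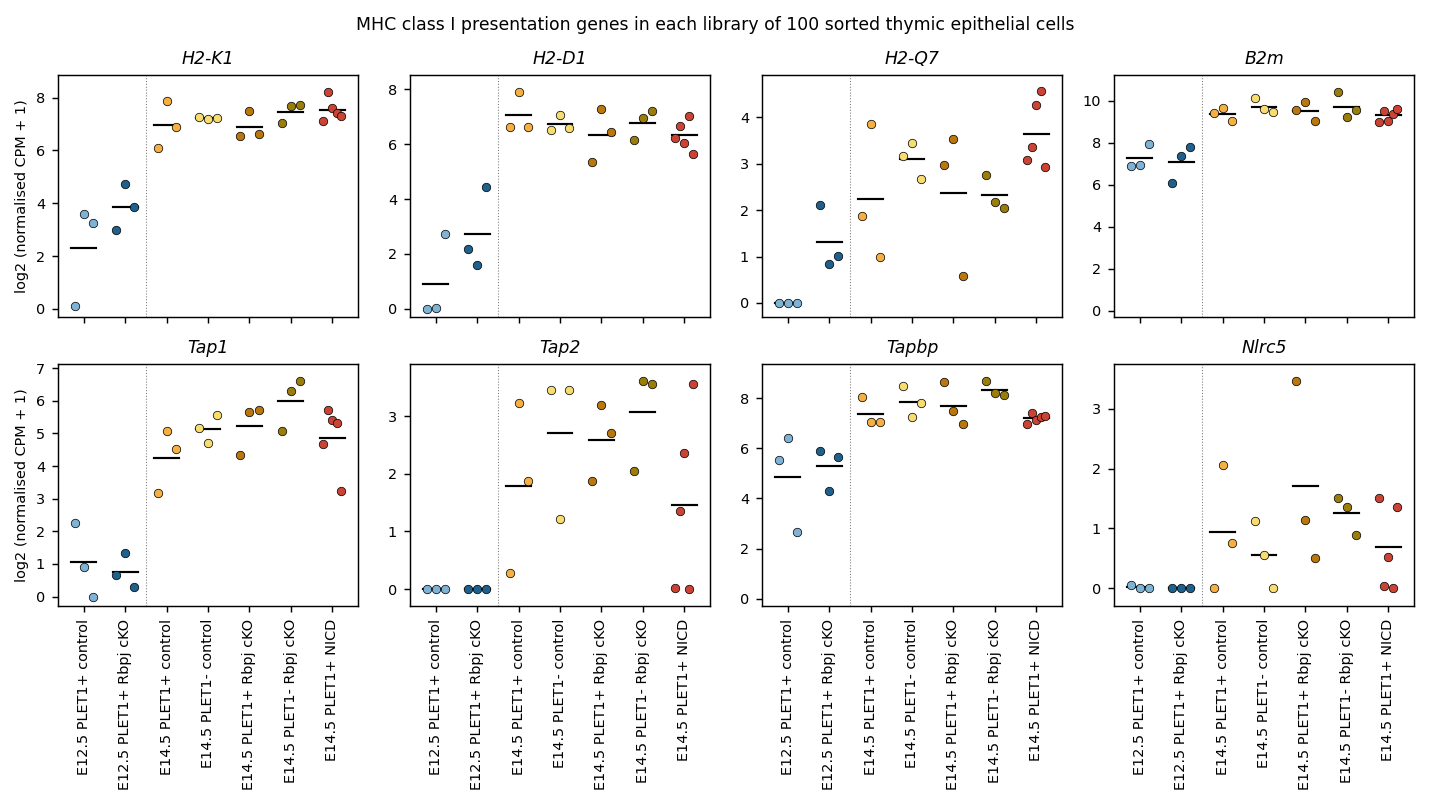
Level of each of the 8 class I presentation genes in each of the 23 libraries, as log2 (normalised CPM + 1); each dot is a library of 100 cells, the black line is the group mean, and the dotted line separates E12.5 from E14.5. B2m and Tapbp are detected in all E12.5 libraries, Tap2 is at 0 in all 6, and no E12.5 library of H2-K1, H2-D1, B2m, Tap1 or Tapbp reaches the lowest E14.5 control library.

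Among the 7 members apart from H2-Q7, 4 rose from E12.5 to E14.5 in control cells, namely B2m, H2-K1, H2-D1 and Tap1, and 0 fell by edgeR. Of all 19140 genes tested, 0.831% rose. DESeq2 called all 7, with Tapbp at an adjusted p of 0.00418, Tap2 at 0.000215 and Nlrc5 at 0.0403. Without the filter on low counts edgeR called 6, adding Tapbp (0.000266) and Tap2 (0.00734). All 7 had an unadjusted p under 0.05, as had 2477 of all genes tested. Tap2 and Nlrc5 had 0 and 1 read pairs over the 6 E12.5 libraries and passed the filter on low counts only through E14.5 libraries. Their p-values in the comparisons with E12.5 are therefore a description only. The median log2 fold change of the 7 was 5.04 against 0.19 over all genes tested. Because the members were chosen with earlier results of these data known, these counts and medians only describe the list. In 6 of the 7, all except Nlrc5, every E14.5 library lay above every E12.5 library, as in 11.5% of genes. The share of mitochondrial counts was 9.30% to 14% in the E12.5 control and 4.50% to 9.54% in the E14.5 control libraries, and its part in these changes was not tested. The calls of B2m and H2-D1 stood without any 1 library. The call of H2-K1 was lost without E12.5 control replicate 3 (4.67, adjusted p = 0.0885) or E14.5 PLET1+ control replicate 2 (3.78, adjusted p = 0.119) or replicate 3 (4.46, adjusted p = 0.0605). That of Tap1 was lost without E12.5 control replicate 2 (5.02, adjusted p = 0.105) or replicate 3 (3.65, adjusted p = 0.103), or E14.5 PLET1+ control replicate 2 (4.29, adjusted p = 0.113) or replicate 3 (5.13, adjusted p = 0.0563). With limma-voom H2-K1 (adjusted p = 0.061) and Tap1 (adjusted p = 0.0612) missed the threshold, as they did with batch terms not centred (0.0574 and 0.201). When the 6 libraries of the comparison were fitted alone, 1 gene of all was called and none of these 4 (adjusted p from 0.0856 to 0.258).

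The age comparison was also made in Rbpj cKO cells, which share no library with the control comparison. They came from the same cross and batches as the controls and entered the same fit. Age therefore cannot be told apart from batch here either, and the comparisons are not fully independent. B2m was 67.1, 166.1 and 218.9 CPM at E12.5 and 750.9, 976.1 and 526.8 CPM at E14.5, a log2 fold change of 2.35 ± 0.33 (SE, adjusted p = 0.00185). H2-D1 was 3.54, 2.01 and 20.8 CPM at E12.5 and 39.7, 153.8 and 86.4 CPM at E14.5 (3.80 ± 0.83, adjusted p = 0.0395), and Tap1 0.578, 1.51 and 0.226 CPM against 19.3, 49.98 and 51.6 CPM (6.03 ± 1.17, adjusted p = 0.0186). H2-D1 missed the threshold without batch terms (adjusted p = 0.309) and with limma-voom (0.152), and Tap1 with limma-voom (0.124) and uncentred batch terms (0.237). Fitting the 6 libraries alone lost both (0.29 and 0.284), and DESeq2 called all 7 members, where Tap2 and Nlrc5 are again a description only. Thus 3 of the 7 members rose in Rbpj cKO cells, against 0.554% of all genes tested, and the median of the 7 was 3.80 against 0.18 over all genes.

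H2-K1 was 6.87, 25.3 and 13.5 CPM at E12.5 and 91.7, 181.0 and 96.96 CPM at E14.5 in Rbpj cKO cells, without overlap, at a log2 fold change of 3.0 ± 0.87 (SE, adjusted p = 0.162). Tapbp changed by 2.22 ± 0.67 (adjusted p = 0.178). Tap2 had 0 counts in the 3 E12.5 cKO libraries and 87, 334 and 233 at E14.5, at least 125.6-fold above the floor (adjusted p = 0.17). Nlrc5 had 0 counts in those E12.5 libraries and 330, 49 and 18 at E14.5, at least 89.7-fold above the floor (adjusted p = 0.247). In all 7 members every E14.5 cKO library lay above every E12.5 cKO library, as in 7.99% of genes. Whether the age effects differ between genotypes was not tested.

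In Rbpj cKO cells the call of B2m stood without any 1 library, and it was lost when the 6 libraries were fitted alone (adjusted p = 0.309, range over the other alternatives 1.9e-10 to 0.309). H2-D1 was called in 11 of the 23 fits that left out 1 library (adjusted p from 0.00151 to 0.193). Its call was lost without E12.5 cKO replicate 1 (4.09), 2 (3.47) or 3 (3.38) or E14.5 PLET1+ cKO replicate 2 (3.20) or 3 (3.82), and without any of 7 libraries outside the comparison, which are replicates 1 and 3 of PLET1+ control, all 3 of PLET1- control and replicates 2 and 3 of PLET1- cKO cells at E14.5 (3.79 to 3.82, adjusted p from 0.0544 to 0.0609). Tap1 was called in 19 (adjusted p from 0.0046 to 0.147). For Tap1 the 4 libraries were E12.5 cKO replicates 1 (5.55) and 2 (6.22) and E14.5 PLET1+ cKO replicates 2 (5.64) and 3 (5.96).

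Rbpj loss at E12.5 is the contrast that chose H2-Q7. H2-Q7 had 98, 17 and 18 read pairs in the 3 E12.5 Rbpj cKO libraries, or 3.33, 0.778 and 1.02 CPM, and 0 in the 3 controls. The cKO mean was at least 79.2-fold above the floor of 3 counts over the control group. It stayed below the E14.5 control mean of 5.75 CPM, and E14.5 PLET1+ control replicates 1 and 3, at 2.69 and 0.997 CPM, lay within the E12.5 cKO range. H2-D1 averaged 8.79 ± 10.4 in cKO against 1.86 ± 3.21 CPM in control cells and H2-K1 15.2 ± 9.33 against 6.5 ± 5.70 (SD, n = 3 each). The libraries of the 2 genotypes overlapped for both. B2m (151 ± 77.1 against 161 ± 71.5 CPM), Tap1 (0.771 ± 0.663 against 1.54 ± 1.96) and Tapbp (42.6 ± 21.02 against 44.9 ± 39.0) overlapped too, Tap2 was at 0 in both genotypes, and Nlrc5 had 1 read pair in all 6 libraries together.

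At E14.5, Notch activity was compared in both directions. With NICD, B2m ranged from 504.3 to 786.2 CPM with a median of 655.2 in 5 libraries, and the control libraries spanned 514.9 to 816.4 CPM. The difference was -0.04 on the log2 scale, with a 95% interval of -0.63 to 0.54 (adjusted p = 0.989). H2-K1 ranged from 136.7 to 296.7 CPM in NICD cells (0.47, interval -1.07 to 2.0, adjusted p = 0.85). H2-D1 ranged from 49.4 to 130.7 CPM, and 2 of its 5 NICD libraries reached the control range (-0.78, interval -2.06 to 0.50, adjusted p = 0.602).

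H2-Q7 was 7.53, 9.31, 18.3, 22.6 and 6.62 CPM in the NICD libraries and 2.69, 13.6 and 0.997 CPM in the controls, which overlapped. The difference was 1.57 ± 0.92 (log2 ± SE, interval -0.37 to 3.51, adjusted p = 0.436). Without E14.5 PLET1+ control replicate 2 it was 2.80 (adjusted p = 0.505). Tap1 (0.65, interval -1.0 to 2.30), Tap2 (-0.21, -3.77 to 3.35), Tapbp (-0.22, -1.33 to 0.90) and Nlrc5 (-0.77, -4.81 to 3.27) gave adjusted p from 0.78 to 0.994. The interval of B2m lies within a 2-fold difference in either direction between these libraries, and those of Tap2 and Nlrc5 reach much larger ones. Genotype, batch and laboratory cannot be told apart here, so the intervals exclude no size of NICD effect. Tap2 was most uneven among NICD libraries, at 0.0148, 1.56, 4.14, 0 and 10.8 CPM.

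None of the 8 members was called between NICD and control cells, where 0.684% of all genes were called, and 0 had an unadjusted p under 0.05 (3010 of all genes). DESeq2 and limma-voom called 0 of the 8 as well. The summed level of 8 mesenchymal markers moved with this comparison, at 23.1 to 426.2 CPM in NICD and 4.18 to 24.4 CPM in control libraries. Its part in these values was not tested.

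Against E12.5 control cells, NICD cells at E14.5 had higher levels of 4 members by edgeR. B2m (2.08 ± 0.31, adjusted p = 0.000773), H2-K1 (4.88 ± 0.92, adjusted p = 0.00636), H2-D1 (8.20 ± 0.98, adjusted p = 9.34e-05) and Tap1 (5.69 ± 1.06, adjusted p = 0.00542) were higher, all as log2 fold change ± SE. These 4 of 7 members, set beside 1.64% of all genes higher, share the E12.5 control libraries with the age comparison in control cells, so the 2 sets of values are not independent. Without the batch terms the fold of H2-D1 was 5.48 on the log2 scale (adjusted p = 0.0274, range over the other alternatives 7.72e-30 to 0.0274). Tapbp (2.03 ± 0.61, adjusted p = 0.0881) was not called, nor Tap2 (adjusted p = 0.0736) and Nlrc5 (adjusted p = 0.236), and the median of the 7 was 5.69 against 0.17 over all genes. DESeq2 called all 7, and Tapbp was also called by limma-voom (0.0424), without the filter on low counts (0.000228) and with only these libraries fitted (0.00663). The p-values of Tap2 and Nlrc5 are again a description only. Every NICD library lay above every E12.5 control library for 5 of the 7, all but Tap2 and Nlrc5, as in 5.63% of genes. The 4 calls stood without any 1 library. With only these 8 libraries fitted, H2-K1 missed the threshold (adjusted p = 0.0865). The mitochondrial share was 9.60% to 12.8% in NICD libraries and 9.30% to 14% in the E12.5 controls. The 8 mesenchymal markers summed to 23.1 to 426.2 CPM in NICD and 8.36 to 71.8 CPM in E12.5 control libraries, 7 of the 8 had a fitted change above 0 with a median of 3.73, and Col3a1 was called (63.2 CPM against 0, adjusted p = 0.0442). Their part in these values was not tested.

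Rbpj loss at E14.5 gave no call among the 8 members in PLET1+ cells or in PLET1- cells. In both comparisons 0% of all genes tested by edgeR were called, and 0 members had an unadjusted p under 0.05, against 395 and 447 of all genes. DESeq2 called 100 and 160 genes and limma-voom 0 and 0, none of them a member. In PLET1+ cells B2m averaged 751 ± 224.7 CPM in cKO against 669 ± 150.8 in control cells (SD, n = 3 each), a log2 difference of 0.15 with an interval of -0.50 to 0.81. Tap1 had the largest difference among members detected in all 6 libraries, at 40.3 ± 18.2 against 20.95 ± 12.3 CPM (0.90, interval -0.91 to 2.72). Between same-numbered libraries Tap1 and B2m were higher in cKO cells in 3 of 3 pairs and H2-D1 was lower in 3 of 3. The share of all genes with 3 of 3 pairs in the same direction was not computed. With the replicate block the differences of Tap1, B2m and H2-D1 were not called either (adjusted p = 1 for each). H2-D1 was 93.3 ± 57.3 against 145.5 ± 81.9 CPM (-0.63, interval -2.09 to 0.83).

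In PLET1- cells Tap1 averaged 69.1 ± 32.9 CPM in cKO and 35.6 ± 10.9 in control cells (0.94, interval -0.87 to 2.76), and B2m 900.5 ± 408.4 and 862 ± 220.9 CPM (0.07, interval -0.59 to 0.72; SD, n = 3 each). H2-Q7 was 4.16 ± 1.44 against 7.74 ± 2.27 CPM (-0.85, interval -2.89 to 1.19). Between same-numbered PLET1- libraries Tap1 and B2m were higher in cKO cells in 2 of 3 pairs and H2-D1 was lower in 2 of 3. Tapbp and Nlrc5 were higher and H2-Q7 was lower in 3 of 3. The share of all genes with 3 of 3 pairs in the same direction was not computed here either, and the pairing is uncertain. Nlrc5 had only 46, 14 and 0 read pairs in the PLET1- control libraries. The adjusted p of each member in both comparisons was 1. The difference between the 2 Rbpj effects was also not called for any member, with 0% of all genes called and 0 members at an unadjusted p under 0.05 (502 of all genes). DESeq2 called 107 genes for this difference and limma-voom 0, none of them a member.

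Within E14.5 control cells, PLET1- cells were compared with PLET1+ cells. H2-K1 was 154.0, 145.4 and 148.3 CPM in PLET1- cells, inside the wider PLET1+ range of 67.1 to 230.5 CPM. B2m averaged 862 ± 220.9 against 669 ± 150.8 CPM (SD, n = 3 each; log2 difference 0.37, interval -0.28 to 1.03), and Tap1 35.6 ± 10.9 against 20.95 ± 12.3 CPM (0.72, interval -1.09 to 2.53). No member was called, 0% of all genes tested by edgeR were called, and 0 members had an unadjusted p under 0.05 (550 of all genes). DESeq2 called 153 genes and limma-voom 1, none of them a member. The mesenchymal marker sum reached 1424 CPM in PLET1- control cells against 24.4 CPM in PLET1+ control cells, and its part was not tested.

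**Figure D3:**
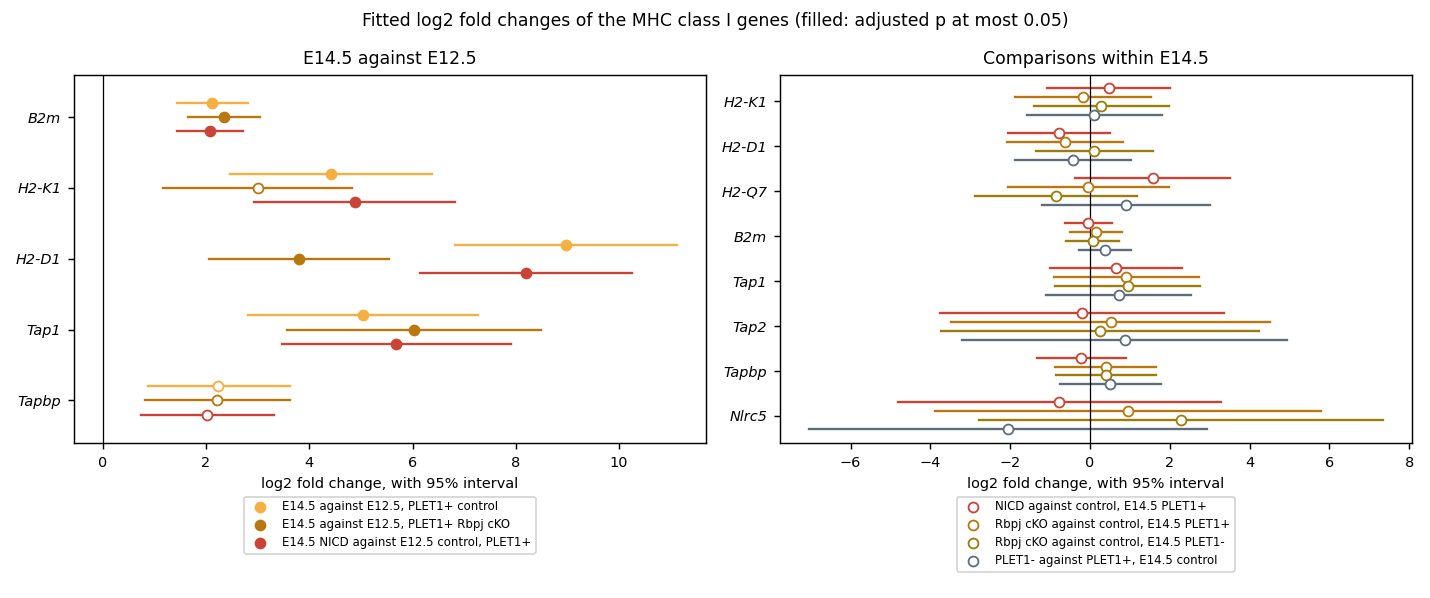
Fitted log2 fold changes with 95% intervals, for 5 genes between E14.5 and E12.5 (left) and all 8 genes within E14.5 (right); filled circles passed an adjusted p of 0.05. All intervals on the left lie above 0, and all on the right cross 0. H2-Q7 is left out on the left because it was chosen on the E12.5 libraries, as are Tap2 and Nlrc5, which had at most 1 read pair there.

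By mean level, both E12.5 groups came last for the 7 members other than H2-Q7, and also for H2-Q7, which was chosen on these libraries. The lowest E14.5 group did not overlap the higher E12.5 group for H2-K1, H2-D1, B2m, Tap1 and Tapbp, whereas it did for H2-Q7, Tap2 and Nlrc5. Among the 5 E14.5 groups, neighbours in the order differed by less than the sum of their SDs for every member. The PLET1- Rbpj cKO cells had the highest mean of B2m, Tap1, Tap2 and Tapbp. NICD cells had the highest mean of H2-K1 and H2-Q7 and, among E14.5 groups, the lowest of H2-D1, B2m, Tap2 and Tapbp. The average log2 (CPM + 1) of the 7 members other than H2-Q7 ranged from 2.12 to 3.15 over the 6 E12.5 libraries and from 4.80 to 6.23 over the 17 E14.5 libraries.

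To compare genes with each other, CPM were divided by the summed length of all annotated exons in kb. For B2m this length equals that of its longest coding transcript (860 bases). It is longer for the other members, as for H2-K1 (2608 against 1619), H2-D1 (2579 against 2102), H2-Q7 (4265 against 1523) and Tap1 (5476 against 2953). Their levels beside B2m are therefore lower than they would be by transcript length, and their order depends on the length used. In E14.5 PLET1+ control cells B2m stood at 778 ± 175.4 CPM per kb, far above H2-D1 (56.4 ± 31.8), H2-K1 (53.2 ± 32.0) and Tapbp (52.8 ± 22.5), which lay within each other's SD. Tap1 followed at 3.83 ± 2.25, H2-Q7 at 1.35 ± 1.60, Tap2 at 0.991 ± 1.10 and Nlrc5 at 0.152 ± 0.197 (SD, n = 3 each). The classical heavy chains H2-K1 and H2-D1 together amounted to 0.0235%, 2.98% and 1.91% of B2m per kb in the E12.5 control libraries. The lowest of these rests on 2 read pairs of H2-K1 and 0 of H2-D1. At E14.5 the share was 8.14% to 19.1% in PLET1+ control cells, with a median of 13.9%, and 8.62% to 18.1% in NICD cells, with a median of 15.2%. In E12.5 Rbpj cKO cells the 3 libraries stood at 5.13% to 5.43%, between the other PLET1+ groups, as a description of the contrast that chose H2-Q7. E14.5 Rbpj cKO libraries ranged from 5.79% to 11.5% in PLET1+ cells and from 4.83% to 18.3% in PLET1- cells. The E12.5 and E14.5 control libraries did not overlap in this share, and the difference was not tested.

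**Figure D4:**
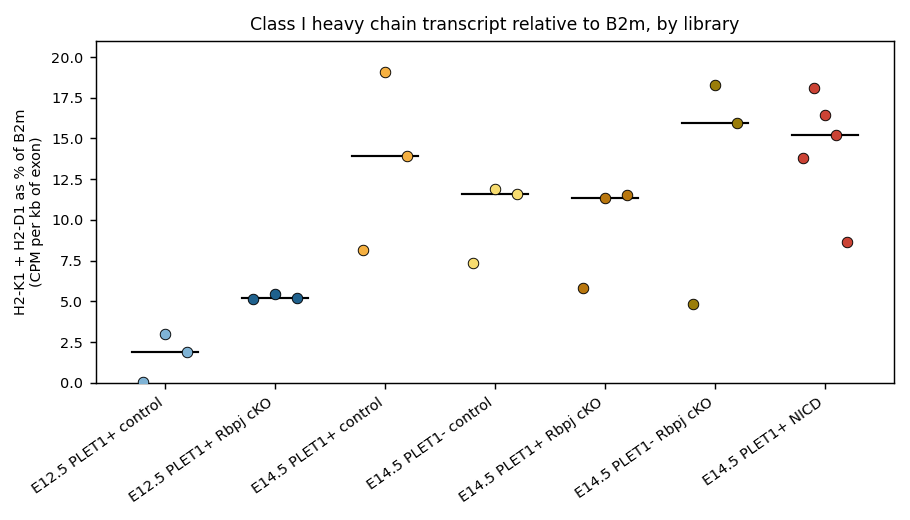
H2-K1 plus H2-D1 transcript as a percentage of B2m transcript, both in CPM per kb of exon, in each of the 23 libraries, with the group median as a line. The 3 E12.5 control libraries lie at or below 2.98%, and no E14.5 library lies below 4.83%. The 3 E12.5 Rbpj cKO libraries, at 5.13% to 5.43%, lie above this lowest E14.5 library, which is of PLET1- Rbpj cKO cells.

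Genes that work with the members were followed in 6 lists. Of 13 peptide supply genes, mainly proteasome subunits, 4 rose from E12.5 to E14.5 in control cells and 0 fell, with a list median of 0.23. These were the immunoproteasome subunits Psmb8 (0 read pairs at E12.5, 6.75 CPM at E14.5, adjusted p = 0.0403), Psmb9 (3.65 ± 0.78, adjusted p = 0.0272) and Psmb10 (1.5 ± 0.28, adjusted p = 0.0122), and the thymoproteasome subunit Psmb11 (2.11 ± 0.41, adjusted p = 0.0141). Of 9 genes of peptide loading and trimming, Tapbpl, a tapasin-related peptide editor (5.25 ± 1.19, adjusted p = 0.0405), and Calr, the chaperone calreticulin (1.03 ± 0.23, adjusted p = 0.0411), rose, and the list median was 1.02. Of 16 other class I heavy chains tested, H2-M2 alone was called (0 at E12.5, 4.29 CPM at E14.5, adjusted p = 0.0241), with a median of 2.55, or 2.85 with genes at 0 set to their lower bounds.

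Of 20 genes for class I transcription, Irf1, an interferon-induced activator, rose from 39.7 to 424.4 CPM (3.43 ± 0.69, adjusted p = 0.0201) and Nfkb1 from 74.8 to 211 CPM (1.59 ± 0.31, adjusted p = 0.0159), with a median of 0.62. Of 17 interferon receptors and genes that respond to interferon, 5 rose, namely the receptor chains Ifngr1 (2.77 ± 0.42, adjusted p = 0.00214) and Ifngr2 (2.69 ± 0.51, adjusted p = 0.0122), the interferon-inducible GTPases Igtp and Irgm1, and Isg15, at a median of 2.77. Of 11 class II presentation genes, the chains H2-Ab1 (2.37 ± 0.35, adjusted p = 0.00141) and H2-Eb1 (3.62 ± 0.46, adjusted p = 0.000333) and the invariant chain Cd74 (4.02 ± 0.64, adjusted p = 0.00314) rose, at a median of 3.43. No gene of the 6 lists fell. Against the background of 0.831% of genes that rose, and with a median of 0.19 over all genes, these counts describe lists chosen with earlier results of these data known.

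Between NICD and control cells at E14.5, 1 gene of the 6 lists was called, the constitutive proteasome subunit Psmb5, which fell by 1.61 ± 0.35 (adjusted p = 0.0401). Psmb11 (-1.40 ± 0.34, adjusted p = 0.0729) and Irf1 (114 against 424.4 CPM, -1.87 ± 0.54, adjusted p = 0.115) missed the threshold. Against E12.5 controls, of 13 peptide supply genes Psmb8, Psmb9 and Psmb10 were higher in NICD cells and Psmb5 (-1.34, adjusted p = 0.0489) and Psmb7 (-0.93, adjusted p = 0.0256) lower, beside 1.64% of all genes higher. Irf1 had a change of 1.56 ± 0.60 (adjusted p = 0.191) and Psmb11 one of 0.72 ± 0.36 (adjusted p = 0.316). Whether Irf1 or Psmb11 differ from the class I genes in their response to NICD was not tested.

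**Figure D5:**
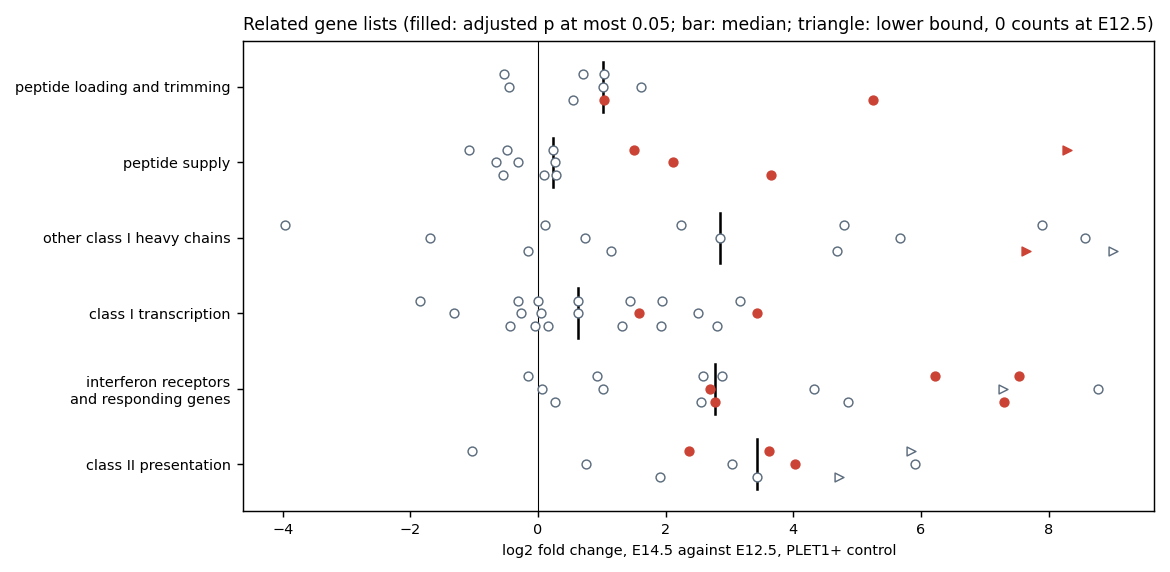
Log2 fold changes from E12.5 to E14.5 in PLET1+ control cells for each tested gene of 6 related lists; each symbol is a gene, filled where the adjusted p was at most 0.05, triangles are lower bounds for genes with 0 read pairs at E12.5, and the bar is the list median. The bars of interferon response and class II presentation lie above 2, and that of peptide supply lies near 0.

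Members of the list resembled each other more across both ages than within E14.5, where age cannot be told apart from batch in the former. Across 23 libraries the Pearson correlation of their log2 levels ranged from 0.39 to 0.91 (H2-K1 with H2-D1), and across the 17 E14.5 libraries from -0.31 (H2-D1 with Nlrc5) to 0.61 (H2-K1 with Tap1). The libraries share batches and depth, and these values are descriptions. The 5 other genes most correlated with the mean level of the members over the 23 libraries were Gsdmd, the pore-forming protein gasdermin D (r = 0.957), S100a14 (0.941), Msc (0.933), Vcam1, an adhesion molecule (0.931), and Il15ra, a receptor chain for interleukin 15 (0.923). Gsdmd had 0 read pairs in all 6 E12.5 libraries and averaged 15.6 to 30.5 CPM in the E14.5 groups. Il15ra averaged 66.8 CPM in E14.5 PLET1+ control cells and 190.4 CPM in NICD cells.

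Markers of other cells were checked because class I genes are also expressed in blood cells and vessels. Over 10 T lineage and blood markers the summed level was 0.575 to 31.2 CPM in E12.5 and 18.2 to 25.8 CPM in E14.5 PLET1+ control libraries, and Ptprc, Cd3e, Rag1, Il7r and Laptm5 were at 0 in the latter. Of the 4 of these markers tested, 0 were called and 3 had a fitted change above 0, with a median of 4.52 (3.09 with genes at 0 set to their bounds). Cd247 and Coro1a were at 0 in E12.5 controls and averaged 0.48 and 1.47 CPM at E14.5. Over 7 myeloid markers the sums were 7.48 to 10.2 and 5.07 to 14.9 CPM, with Lyz2 and Tyrobp at 0 in every library of both groups. Csf1r, Aif1 and Itgam were at 0 in the first group only, and Fcer1g in the second only. Markers with a count thus numbered 2 in the first group and 4 in the second. Over 7 endothelial markers they were 0.167 to 3.62 and 0.146 to 2.94 CPM, with Cldn5 at 0 in both groups and Tek at 0 in the first and 0.902 CPM on average in the second. Emcn was also at 0 in the first group only, and Cdh5 and Tie1 in the second only. The part of these markers in the class I changes was not tested. Over 6 red cell markers they were 0.932 to 5.94 and 0.404 to 1.03 CPM. The mesenchymal sums were 8.36 to 71.8 CPM in E12.5 and 4.18 to 24.4 CPM in E14.5 PLET1+ control libraries. In such pooled cells, fewer expressing cells and less RNA per cell cannot be told apart.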

How the data were processed

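The deposited table held raw counts of read pairs per gene for 50123 genes in 23 libraries of 100 sorted cells, prepared by Smart-seq2 and sequenced as paired 75-base reads. Per the labels, the authors used bcl2fastq, Trimmomatic 0.32, STAR 2.5.1a and featureCounts 1.5.1 with GRCm38.p5. The file header gives exon counting of read pairs against GENCODE vM12 without strand. Symbols were found for 49326 gene IDs (98.4%). Totals were 20053241 to 92699969 counts per library, and precision from depth covers counting error only. Groups and replicates came from the labels. Where replicates share a litter, p-values measure only the spread between these samples.

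Counts were normalised by TMM and fitted once over all 23 libraries with the edgeR 4.0.16 quasi-likelihood test in R 4.3.3, with 7 group means, 2 batch terms centred within each age and the default filter on low counts, which kept 19140 genes. P-values were two-sided, adjusted by Benjamini-Hochberg over all genes kept, and called at 0.05. CPM are on TMM library sizes, and log2 levels used a pseudocount of 1. The script was tested on simulated data. DESeq2 1.42.0, limma 3.58.1, RLE factors, other filters, no or uncentred batch terms, a replicate block, fits of only the groups compared, a pseudocount of 0.1 and leaving out each library were alternatives. A further planned scaling and a marker gene are not reported here. The age comparison in Rbpj cKO cells was added after the control comparison was seen. Members and lists were chosen with earlier results of these data known. All 8 members are named, as are the genes of the related lists called for age in control cells and the 5 genes most correlated with the members' mean level.

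Groups shared replicate numbers in the labels, and whether these pair the samples was checked over 4638 genes. For same-numbered libraries, deviations from the group means correlated at 0.46 to 0.66 between Rbpj cKO and control PLET1+ cells. They correlated at 0.46 to 0.74 in PLET1- cells and 0.47 to 0.69 between PLET1- and PLET1+ control cells. For libraries of different number the highest values were 0.51, 0.55 and 0.44 in that order. Only in the last comparison did every library correlate best with its own number, so pairing is less certain in the Rbpj comparisons.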

Additional observations from a re-analysis of the deposited data

How the results depend on the processing

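The number of genes called depended on the tool, while no result for a member changed direction among those called. In the order NICD against control, Rbpj cKO against control in PLET1+ and in PLET1- cells, age in control cells, PLET1- against PLET1+, NICD against E12.5 control, the difference of Rbpj effects and age in Rbpj cKO cells, edgeR called 131, 0, 0, 185, 0, 538, 0 and 150 genes. DESeq2 called 1236, 100, 160, 1284, 153, 2285, 107 and 1099, and edgeR with no filter on low counts 677, 10, 15, 519, 16, 1129, 6 and 393. limma-voom called 998 for NICD against control, 448 for age in control cells, 1 for PLET1- against PLET1+ and 1500 for NICD against E12.5 control. It moved the median of all genes to -0.53 on the log2 scale for NICD against control. For age in Rbpj cKO cells there were 95 calls without batch terms and 74 with uncentred ones, which gave 94 for age in control cells. Fitting only the groups compared left 17 for NICD against control, 1 for age in control cells, 325 for NICD against E12.5 control and 2 for age in Rbpj cKO cells. The causes were not tested.

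The replicate block changed no call in the 3 comparisons whose same-number correlations were all 0.46 or more, with 0 genes called in each. Elsewhere the samples share only a number, their same-number correlations ranging from -0.47 to 0.36, and the block gave 74 calls for NICD against control, 134 for age in control cells, 540 for NICD against E12.5 control and 102 for age in Rbpj cKO cells. With it Tap1 missed the threshold for age in control cells (adjusted p = 0.177) and Tapbp passed it in Rbpj cKO cells (adjusted p = 0.0104).

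Leaving out 1 library gave 32 to 172 calls for NICD against control, 91 to 219 for age in control cells, 293 to 597 for NICD against E12.5 control and 52 to 160 for age in Rbpj cKO cells, and 0 in the other comparisons. The lowest were without E14.5 PLET1+ control replicate 2, the same library, E12.5 control replicate 3 and E12.5 Rbpj cKO replicate 3, in that order. The number of members called ranged from 2 to 5, from 4 to 5 and from 1 to 4 in the last 3. Groups of 3 libraries and counts near 0 at E12.5 limit the precision for H2-Q7, Tap2 and Nlrc5.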
